A study of Petromyzon marinus with 4 samples.

Results

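The Tudor-domain genes of the piRNA pathway were followed as 5 features of the sea lamprey (Petromyzon marinus) count tables. TDRD7, TDRD9, TDRD12 and TDRKH are listed by symbol (TDRKH has no entry under that symbol in the gene table used for names), and LOC116941464 is named TDRD1 by its gene ID and is called TDRD1 here. They were taken by name out of 21967 features. The rule uses no measured value, although earlier results of these data were known when it was set. All 5 were listed in every library and had counts in germ cell-like and in other cells of each.

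piRNAs are small RNAs that guide PIWI proteins to transposon transcripts in animal germ cells. Tudor domains bind methylated arginines in PIWI proteins, and the proteins that carry them hold the machinery together in granules beside mitochondria. In the mouse, loss of most of these genes stops male germ cell development.

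Gonad cells of wild-caught, wild-type sea lampreys of unknown age were captured after dissociation and flow enrichment of live cells, and their RNA was counted by a 3′ single-cell assay in 4 libraries. One library came from a female transformer gonad, 1 from a male transformer gonad and 2 from larval gonads. A transformer has gone through metamorphosis and its sex is given. Larval gonads were undifferentiated, the larvae have no sex in the labels, and how many animals went into each library is not given in the sources used here. All p-values below therefore measure the spread between libraries, which may be technical. In the transformer group, of 1 female and 1 male library, that spread also holds any difference between the sexes. With 1 library for each sex, female and male values were compared without a test.

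A cell had at least 1875 counts and 250 genes, which left 28977 female, 38208 male, 18647 and 19515 larval cells (larval libraries 1 and 2) after doublet removal. Germ cell-like clusters were named from markers other than the Tudor-domain genes: 8 clusters had 5 to 13 of the 27 germ cell markers that were found raised. They held 501 female cells (1.73%), 27222 male cells (71.2%), and 1192 and 1243 larval cells (6.39% and 6.37%). The female germ cell-like cells lay almost all in cluster 33, the male ones in clusters 0, 1, 7, 18 and 36, and the larval ones in clusters 19 and 22. A further 1585 male cells in mixed clusters were left out of both cell sets, so "other cells" means somatic and unnamed cells. Many barcodes were shared: 25.0% to 34.2% of a library's called cells had a barcode also listed in the library of the same stage, against 2.67% to 3.57% across stages. Between 5 and 12 barcodes were called as cells in both of any 2 libraries. Without all shared barcodes, germ cell-like cells were 195 female (0.991%), 18753 male (69.3%), and 421 and 394 larval cells (3.61% and 3.28%). Some of the values below are also given for these cells, which are the shallower ones in the female and larval libraries. Their median depth was 8856 counts in place of 19862 (female) and 7745 in place of 8142.5 (male). In larval libraries 1 and 2 it was 5832 and 5988.5 in place of 18669.5 and 22040. Levels are in CPM, the counts of a gene scaled to 1000000 counts of all named genes in that cell set, with exact 95% Poisson intervals that cover counting error only. They are not per length and are compared across libraries and cells, never between genes.

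TDRD1, the scaffold that in the mouse binds PIWI proteins in the granules of male germ cells, was low in female germ cell-like cells. It stood at 1.31 CPM there (19 counts, interval 0.791 to 2.05), 7.08 CPM in male ones (1638 counts, 6.75 to 7.44), 7.95 CPM in larval library 1 (404 counts) and 7.61 CPM in larval library 2 (445 counts). In other cells it stood at 0.220 CPM in the female, 0.535 CPM in the male, and 0.448 and 0.362 CPM in the larval libraries. The female germ cell-like level is the lowest of the 4, while every germ cell-like level exceeds every level in other cells. The log2 ratio of germ cell-like to other cells was 2.60 in the female library (interval 1.71 to 3.40), 3.70 in the male one, 4.14 in larval library 1 and 4.38 in larval library 2. Without shared barcodes the germ cell-like level was 3.12 CPM in the female library from only 7 counts (interval 1.25 to 6.43), 6.98 CPM in the male one, and 13.2 and 12.3 CPM in larval libraries 1 and 2 (49 counts each). The log2 ratio was then 4.16 in the female library, and 4.64 and 5.22 in the larval ones, so the gap between female and male levels narrowed and the larval levels moved further above the male one.

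TDRD7, which in the mouse builds the chromatoid body, a granule of spermatids, had the same split between cell sets in each library. Germ cell-like cells held 36.9 CPM in the female library (533 counts, interval 33.8 to 40.1), 140.2 CPM in the male library (32407 counts, 138.6 to 141.7), and 61.2 and 59.7 CPM in larval libraries 1 and 2 (3111 and 3489 counts). Other cells held 0.540 CPM in the female library, 7.98 CPM in the male library, and 2.08 CPM in both larval libraries. The larval levels lie between the female and the male level in both cell sets. The germ cell-like level was 68.0-fold the level of other cells in the female library and 17.5-fold in the male library. In larval libraries 1 and 2 it was 29.4-fold and 28.6-fold. These folds move with the settings. With the count minimum doubled the log2 ratio in the male library was 4.995 in place of 4.13. With free RNA subtracted from other cells, as described below, it was 5.56 in the male library and 6.57 in the female one in place of 6.09. Without shared barcodes it was 5.65 and 5.68 in larval libraries 1 and 2, in place of 4.88 and 4.84.

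TDRD9, a helicase with a Tudor domain that in the mouse acts in transposon silencing in fetal male germ cells, followed the same order. Its germ cell-like level was 24.3 CPM in the female library (352 counts, interval 21.9 to 27.0), 94.9 CPM in the male library (21940 counts, 93.6 to 96.2), and 39.5 and 41.0 CPM in larval libraries 1 and 2. Other cells held 3.05 CPM in the female library, 8.58 CPM in the male library, and 4.60 and 3.94 CPM in the larval ones. Other cells were thus never at 0, and the log2 ratio of germ cell-like to other cells was 3.00 for female, 3.46 for male, 3.10 for larval library 1 and 3.38 for larval library 2.

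TDRD12, which carries Tudor domains and a helicase-like region and in the mouse is needed for piRNA production, differed between germ cell-like and other cells in no single direction. Germ cell-like cells held 1.31 CPM in the female library (19 counts, interval 0.791 to 2.05), 2.56 CPM in the male library (593 counts), and 5.06 and 5.20 CPM in larval libraries 1 and 2 (257 and 304 counts). Other cells held 2.22 CPM in the female library (403 counts), 0.959 CPM in the male library (43 counts), and 4.77 and 4.02 CPM in the larval libraries (554 and 533 counts). Both larval libraries are above both transformer libraries in each cell set. The log2 ratio of germ cell-like to other cells was -0.72 in the female library (interval -1.50 to -0.09), 1.40 in the male library (0.97 to 1.90), 0.09 in larval library 1 (-0.14 to 0.30) and 0.37 in larval library 2 (0.16 to 0.58). On these totals germ cell-like cells are the lower set in the female library and the higher set in the male library. In the female library 185 genes described below took 46.7% of the germ cell-like counts. The ratio without them was not computed. In larval library 1 the ratio changed sign to -0.08 with abundant genes left out of the totals and to -0.12 without shared barcodes.

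TDRKH, which in the mouse anchors PIWI proteins to mitochondria for piRNA trimming, stood between 0.804 and 2.16 CPM in all cell sets and libraries. Germ cell-like cells held 0.968 CPM in the female library (14 counts), 1.34 CPM in the male library (310 counts), and 1.71 and 2.16 CPM in larval libraries 1 and 2 (87 and 126 counts). Other cells held 0.804 CPM in the female library, 0.869 CPM in the male library, and 1.35 and 1.17 CPM in the larval libraries. The interval of the log2 ratio of germ cell-like to other cells spans 0 in the female library (-0.64 to 1.06) and in larval library 1 (-0.05 to 0.73). It lay above 0 in the male library (0.14 to 1.14) and in larval library 2 (0.53 to 1.23). In larval library 1 the ratio was 0.34, and 1.39 without shared barcodes, where the germ cell-like level was 3.23 CPM from 12 counts. With abundant genes left out of the totals the male ratio was 0.06.

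**Figure D1:**
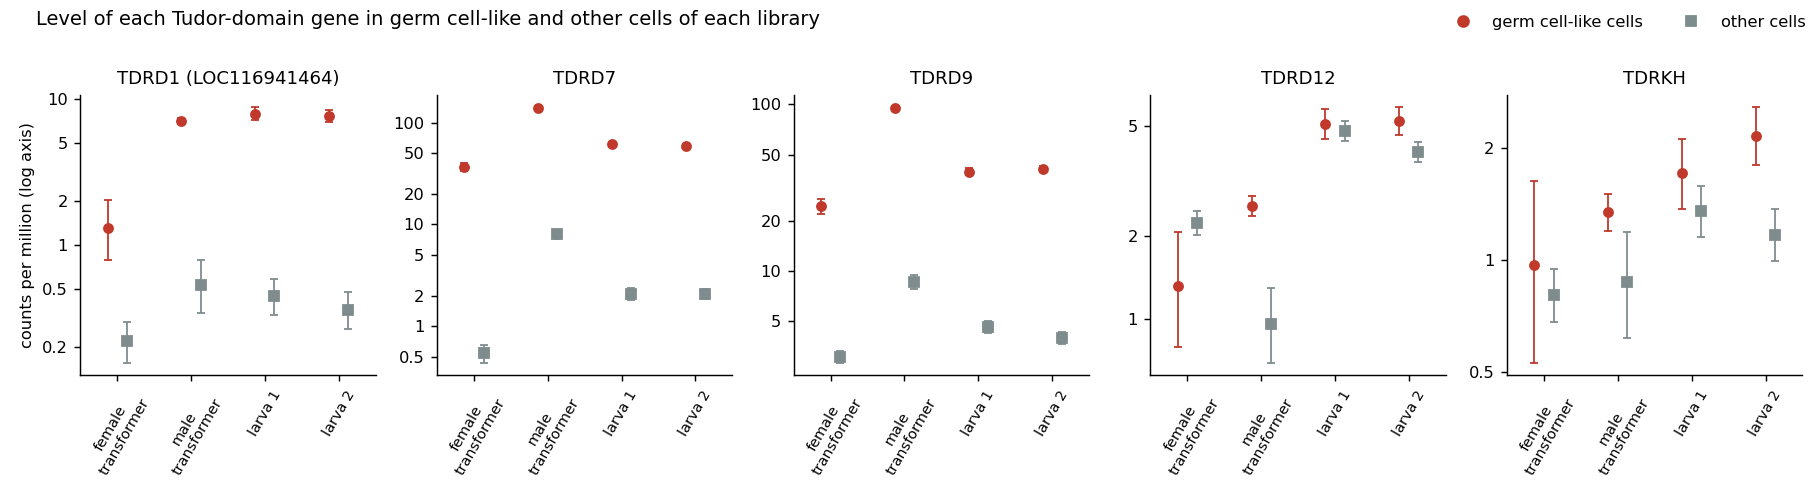
Level of each gene in germ cell-like cells (red circles) and other cells (grey squares) of the 4 libraries, in CPM on log axes that differ between panels, with exact 95% Poisson intervals. TDRD1, TDRD7 and TDRD9 are far higher in germ cell-like cells of every library, with the female level lowest. The TDRD12 and TDRKH points of the cell sets lie closer together or cross. In the male library TDRD12 is higher in germ cell-like cells, with intervals that do not overlap.

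In all, 3 of the 5 genes, TDRD1, TDRD7 and TDRD9, were at least 2-fold higher in germ cell-like than in other cells of all 4 libraries. Of all 19274 genes with enough counts, 7.43% were. Taken singly, the female library had 3 of the 5 genes past that fold (24.3% of all genes), the male library 4, with TDRD12 (32.5%), which fell below it at 0.86 with abundant genes left out of the totals, and larval libraries 1 and 2 had 3 each (20.5% and 22.0%). No test was made, since the clusters were built from the same cells. When the 5 genes were allowed among the variable genes none of them was picked, so the clusters stayed as they were, and adding them to the marker list left the same numbers of cells in each set. Of all TDRD7 counts in called cells, germ cell-like cells gave 84.2% in the female library and 94.3% in the male one, and 92.8% and 92.7% in the larval ones. Of the counts of all genes they gave 7.38% in the female library, 79.0% in the male one, and 30.4% and 30.6% in the larval ones. They gave 38.9% of the female TDRD9 counts and 4.50% of the female TDRD12 counts, beside 7.38% of all female counts.

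Free RNA was read from barcodes ranked 40000 to 80000 in each library, most of which hold too few counts to be cells. In the male library 40223 barcodes met the count and gene minimum, so the first of these ranks there include such barcodes. Their effect on the male values was not tested. TDRD7 stood there at 3.59 CPM in the female library, 117.4 CPM in the male library, and 17.7 and 15.5 CPM in larval libraries 1 and 2. TDRD9 stood there at 8.05 CPM in the female library, 95.1 CPM in the male library, and 18.1 and 15.1 CPM in the larval ones. TDRD1 stood at 0.239 CPM in female, 6.70 CPM in male, and 2.76 and 1.36 CPM in larval barcodes of these ranks. The male library is the highest and the female library the lowest for all 3 genes, as in other cells. Free RNA could make up at most 4.30% of the counts of female other cells, 4.28% of male ones, and 3.89% and 3.82% of larval ones, since a larger part would take some genes below 0. Subtracting that part left 0.385 CPM of TDRD7 in female other cells, 2.96 CPM in male ones, and 1.39 and 1.49 CPM in larval ones. TDRD9 was left at 2.70 CPM in female other cells, 4.51 CPM in male ones, and 3.90 and 3.37 CPM in larval ones. TDRD1 was left at 0.210 CPM in female, 0.248 CPM in male, and 0.341 and 0.310 CPM in larval ones, with the female and male values close together. TDRD12 was left at 2.09 CPM in female, 0.891 CPM in male, and 4.67 and 3.88 CPM in larval other cells. After the subtraction the female library is the lowest and the male library the highest for TDRD7 and TDRD9, with less than 2-fold between them for TDRD9, and both larval libraries are the highest for TDRD12.

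Between the transformer libraries, the female germ cell-like cells held less of TDRD1, TDRD7 and TDRD9. The log2 ratio of female to male was -2.39 for TDRD1 (interval -3.17 to -1.78), -1.93 for TDRD7 (-2.05 to -1.80) and -1.96 for TDRD9 (-2.12 to -1.81). It was -0.93 for TDRD12 (-1.71 to -0.31) and -0.42 for TDRKH, whose interval spans 0 (-1.36 to 0.30). So 3 of the 5 genes were at least 2-fold lower in the female library, where 24.8% of all 18437 genes were at least 2-fold lower and 19.1% at least 2-fold higher. The median of the 5 genes was -1.93, beside -0.09 over all genes. Without shared barcodes the ratio of TDRD1 was -1.06 and those of TDRD7 and TDRD9 were -1.92 and -1.85. The cells compared also differ in kind: SYCP3, a protein of the meiotic chromosome axis, stood at 2.43 CPM in female cluster 33 and at 136.1 to 300.4 CPM in the male germ cell-like clusters. The part of that difference in the ratios was not tested.

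The size of these ratios depends on the totals. A set of 185 genes that were at least 100-fold apart between the female and the male germ cell-like cells took 46.7% of the counts in the female ones, 0.515% in the male ones, and 16.7% and 15.99% in larval libraries 1 and 2. Leaving those genes out when levels are scaled, an alternative chosen after seeing the data, moved every ratio of female to male up by 0.90 on the log2 scale. It was then -1.49 for TDRD1, -1.03 for TDRD7 and -1.06 for TDRD9, at least 2-fold lower in the female library, and -0.03 for TDRD12, beside 11.8% of all genes at least 2-fold lower and 43.2% at least 2-fold higher under these totals. For TDRKH it changed sign to 0.48.

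In other cells the female library was lower for TDRD1, TDRD7 and TDRD9 again and higher for TDRD12. The log2 ratio of female to male was -1.29 for TDRD1 (interval -2.05 to -0.49), -3.88 for TDRD7 (-4.22 to -3.56) and -1.49 for TDRD9 (-1.68 to -1.30). It was 1.20 for TDRD12 (0.76 to 1.70) and -0.13 for TDRKH (-0.63 to 0.44). At least 2-fold lower in the female library were 3 of the 5 genes and 4.84% of all 18002 genes, and 17.9% of all genes were at least 2-fold higher. That count changes with free RNA. After the subtraction given above the ratio was -0.29 for TDRD1, -2.93 for TDRD7 and -0.74 for TDRD9. So 1 of the 5 genes, TDRD7, was at least 2-fold lower, and the share of all genes after the subtraction is not given here. TMM scaling, which lowers all ratios of other cells by 0.33, puts TDRD12 at 0.87, under 2-fold. Doubling the count minimum puts TDRD1 at -0.87 and TDRD7 at -3.02.

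**Figure D2:**
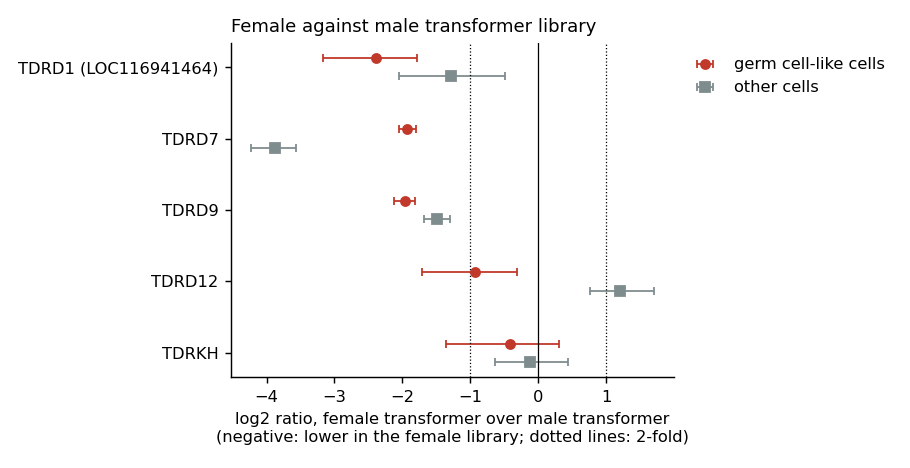
Log2 ratio of the female over the male transformer library for each gene (rows), in germ cell-like cells (red circles) and other cells (grey squares), with 95% intervals from counting error. TDRD1, TDRD7 and TDRD9 lie left of 0 in both cell sets, TDRD12 lies left of 0 in germ cell-like cells and right of it in other cells, and the TDRKH intervals cross 0.

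The stage comparison set the 2 transformer libraries against the 2 larval libraries with edgeR's quasi-likelihood test, adjusted by Benjamini-Hochberg over all genes tested. The female and the male library stood as the 2 transformer replicates. Their difference thus counts as spread, and a gene that differs between them is harder to call. None of the 5 genes passed an adjusted p of 0.05 in germ cell-like cells, in other cells or in all called cells. Among all genes none passed in the germ cell-like set (0.0% of 18040) or over all cells (0.0% of 18981), while 2702 and 3379 genes had an unadjusted p under 0.05. DESeq2 called 613 and 1778 genes there, and none of the 5. In other cells the call was made for 893 of 18515 genes (4.82%), of which 406 rose (2.19%) and 487 fell (2.63%) in transformers. With total counts in place of TMM the split was 116 higher and 1180 lower, and with the count minimum doubled 88 higher and 281 lower.

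For TDRD7 and TDRD9 the transformer libraries lay on opposite sides of the larval ones. In germ cell-like cells the log2 ratio of the female transformer library to larval libraries 1 and 2 was -0.73 and -0.69 for TDRD7, and -0.70 and -0.75 for TDRD9. The male transformer library lay above the same larval libraries, by 1.19 and 1.23 for TDRD7, and by 1.26 and 1.21 for TDRD9. These ratios share their larval libraries. The larval germ cell-like cells pool clusters 19 and 22, which differ in TDRD7 and TDRD9 as given below. The part of that mix in the ratios was not tested. With the 185 genes named above left out of the totals, the female ratios were -0.09 and -0.04 for TDRD7 and -0.05 and -0.09 for TDRD9, close to the larval level, and the male ones were 0.94 and 0.99 for TDRD7 and 1.01 and 0.97 for TDRD9. Without shared barcodes, which leaves shallower female and larval cells, the female ratios were -1.32 and -1.37 for TDRD7 and -0.99 and -1.17 for TDRD9. The male ones were then 0.60 and 0.55 for TDRD7 and 0.87 and 0.68 for TDRD9. The edgeR log2 fold change of transformers over larvae was 0.94 for TDRD7 (SE 0.73, adjusted p = 0.57) and 0.96 for TDRD9 (SE 0.74, adjusted p = 0.57), so neither passed. Without shared barcodes the same fold change was 0.37 for TDRD7 and 0.59 for TDRD9.

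TDRD12 was lower in both transformer libraries than in both larval libraries, in each cell set, on CPM and on TMM-scaled CPM. On CPM, 3 of the 5 genes (TDRD1, TDRD12 and TDRKH) had both transformer libraries below both larval ones in germ cell-like cells, where 45.4% of all genes did and 12.3% lay above. In other cells 2 of the 5 (TDRD12 and TDRKH) lay below, beside 59.6% of all genes below and 10.5% above. After TMM scaling TDRD12 was the 1 gene of the 5 below in either cell set, beside 28.4% of all genes below and 22.3% above in germ cell-like cells, and 31.4% below and 29.5% above in other cells. The log2 fold change in germ cell-like cells was -0.97 (edgeR, SE 0.41, adjusted p = 0.38). In other cells it was -0.95 (edgeR, SE 0.35, adjusted p = 0.18), and in all cells -0.67 (edgeR, SE 0.21, adjusted p = 0.26). Without the female or the male library, which leaves only the larval pair to give the spread, TDRD12 passed in all 3 cell sets, but so did 49.1% to 69.0% of all genes, and in all cells TDRD1, TDRD7 and TDRD9 passed with it. Without a larval library no gene passed.

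TDRD1 and TDRKH did not pass either. Here too the larval germ cell-like cells pool clusters 19 and 22, and TDRD1 was higher in cluster 22, as given below. In germ cell-like cells the log2 ratio of TDRD1 to larval libraries 1 and 2 was -2.56 and -2.50 for the female library, and -0.17 and -0.11 for the male one. Without shared barcodes it was -1.99 and -1.89 for the female library, and -0.93 and -0.83 for the male one. With the 185 genes left out of the totals it was -1.92 and -1.84 for the female library, and -0.42 and -0.35 for the male one. The same ratio of TDRKH was -0.78 and -1.11 for the female library, and -0.36 and -0.69 for the male one. Without shared barcodes it was -1.41 and -1.06 for the male library. For the female library it was then -1.59 and -1.24. Those female ratios rest on 2 female and 12 and 10 larval counts, fewer than the 20 counts set for a ratio. Over all germ cell-like cells the edgeR log2 fold change was -0.47 for TDRD1 (edgeR, SE 0.84, adjusted p = 0.81) and -0.31 for TDRKH (edgeR, SE 0.31, adjusted p = 0.66). In other cells it was 0.28 for TDRD1 (edgeR, SE 0.60, adjusted p = 0.80) and -0.06 for TDRKH (edgeR, SE 0.23, adjusted p = 0.90).

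The germ cell-like clusters were not alike in these genes. Male cluster 36 (328 cells, median 3446.5 counts) held the highest level of TDRD1, TDRD7 and TDRD9 among all 61 profiles, a profile being the summed counts of 1 cluster in 1 library with at least 50 cells. TDRD9 stood there at 322.8 CPM (415 counts, interval 292.5 to 355.4), against 92.6 to 96.4 CPM in male clusters 0, 1 and 7 and 74.6 CPM in male cluster 18. TDRD7 stood at 287.8 CPM (interval 259.2 to 318.7) in cluster 36, against 131.3 to 160.6 CPM in the other 4 male clusters. TDRD1 stood at 25.7 CPM (33 counts, interval 17.7 to 36.1) in cluster 36, against 6.69 to 7.69 CPM. Cluster 36 is shallow: its median of 3446.5 counts a cell compares with 7297 to 10963.5 in the other male germ cell-like clusters. It had 10 raised germ cell markers, and PIWIL1 stood at 445.0 CPM there.

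Cluster 18, the male cluster with the most PCNA (782.9 CPM against 195.3 to 360.6 CPM in the other male germ cell-like clusters), a clamp of DNA replication, had the second highest TDRD7 and the lowest TDRD9 of the male clusters. Its TDRD7 level was 160.6 CPM (interval 154.4 to 166.9) and its TDRD9 level 74.6 CPM (70.4 to 78.9). Against clusters 0, 1 and 7 it is thus higher in TDRD7 and lower in TDRD9.

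Both larval libraries showed the same split between their germ cell-like clusters. Cluster 22, with SYCP3 at 223.9 and 239.6 CPM in larval libraries 1 and 2, held TDRD1 at 14.2 and 14.4 CPM, TDRD7 at 108.7 and 98.5 CPM, and TDRD9 at 57.1 and 58.1 CPM. Cluster 19, with SYCP3 at 40.4 and 44.9 CPM, held TDRD1 at 6.58 and 6.02 CPM, TDRD7 at 51.0 and 50.8 CPM, and TDRD9 at 35.7 and 37.0 CPM. TDRD12 ran the other way, with 3.98 and 4.02 CPM in cluster 22 and 5.29 and 5.48 CPM in cluster 19. In both libraries the intervals of TDRD1, TDRD7 and TDRD9 do not overlap between the clusters, and those of TDRD12 do. The median depth was 17454 and 20543.5 counts a cell in cluster 22, and 25999 and 33749 in cluster 19. Without shared barcodes 421 and 394 larval germ cell-like cells remained, of median depth 5832 and 5988.5 counts, and TDRD7 stood at 91.7 and 95.01 CPM in them.

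**Figure D3:**
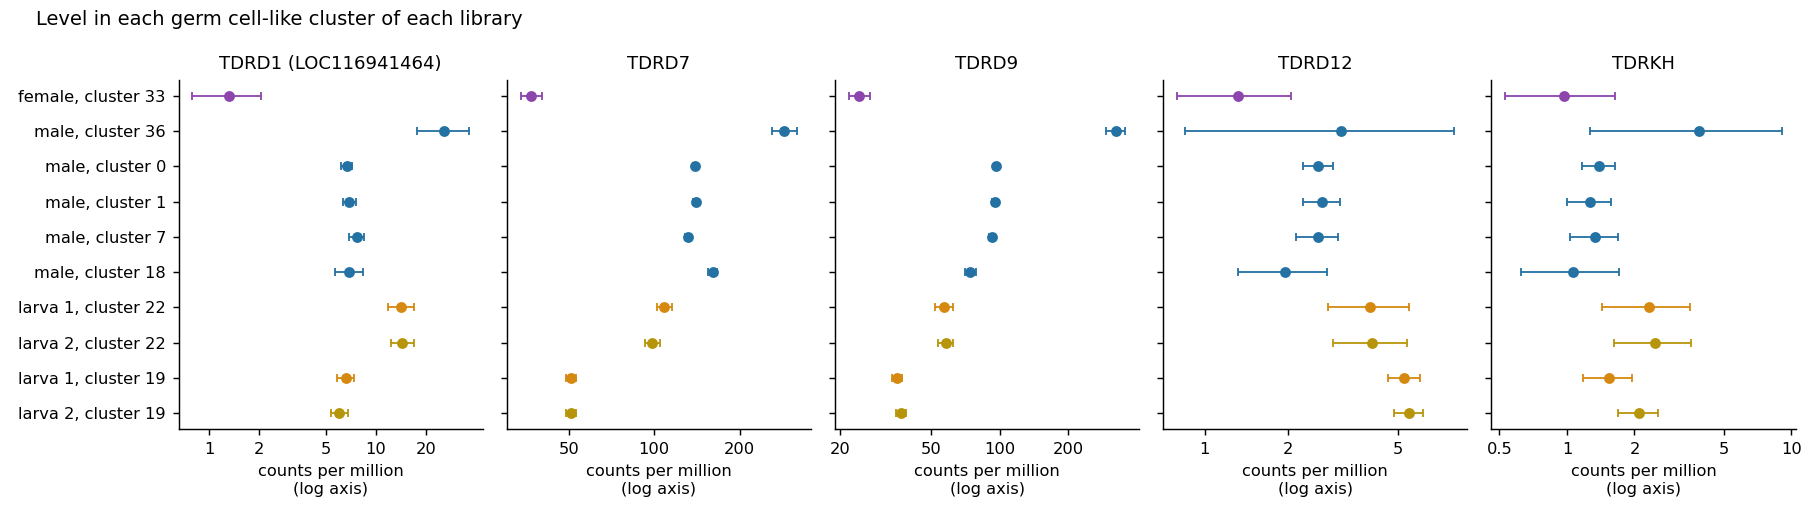
Level of each gene in the 10 profiles of germ cell-like clusters, in CPM on log axes that differ between panels, with exact 95% Poisson intervals. Colours mark the libraries. Male cluster 36 lies highest for TDRD1, TDRD7 and TDRD9, cluster 22 lies above cluster 19 in both larval libraries for these genes, and female cluster 33 lies lowest.

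Outside the germ cell-like clusters, TDRD12 had the highest level of all profiles. Its top 4 profiles were cluster 26 in larval library 1 (24.3 CPM, 96 counts, interval 19.6 to 29.6) and larval library 2 (20.8 CPM, 81 counts), and cluster 24 in larval library 2 (19.7 CPM, 103 counts) and larval library 1 (18.2 CPM, 83 counts). The highest germ cell-like profile of TDRD12 was 5.48 CPM. Neither cluster could be named: LOC116954130 and LOC116957159 lead cluster 26, and LOC116940529 and LOC116940527 lead cluster 24. PIWIL1, the PIWI protein gene, was low there at 0.574 to 2.05 CPM, as was TDRD7 at 0.253 to 1.80 CPM. The clusters together hold 5.83% and 5.18% of the other cells of larval libraries 1 and 2, and gave 32.3% and 34.5% of the TDRD12 counts of other cells. Without them TDRD12 in other cells stood at 3.49 and 2.83 CPM, still above the female level of 2.22 CPM and the male level of 0.959 CPM. These clusters were singled out after their values were seen.

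The remaining genes were low in most other clusters. TDRD1 had no count in 17 of 49 profiles of other clusters, where 3 counts would be 0.574 to 13.5 CPM, and its median over the 49 was 0.233 CPM. The medians over the same profiles were 1.22 CPM for TDRD7 and 0.913 CPM for TDRKH, whose highest 2 other profiles, at 3.48 and 3.40 CPM, were above all but 1 of its germ cell-like profiles. TDRD9 had counts in all 49, with a median of 3.74 CPM and a lowest value of 1.33 CPM. The highest other profile of TDRD1, TDRD7 and TDRD9 was the same, male cluster 23 (290 cells), which held 2.15, 43.8 and 33.9 CPM of them. TDRD7 and TDRD9 had 102 and 79 counts there, while TDRD1 had only 24 counts in all male other cells together. As point values on these totals, without regard to counting error, these 3 levels are above the female germ cell-like levels. The 185 genes described above took 46.7% of the female germ cell-like counts, and this order without them was not computed. In cluster 23, PIWIL1 stood at 1.18 CPM in female and 96.2 CPM in male cells, and SYCP3 at 1.77 CPM in female and 48.1 CPM in male cells. Without cluster 23 the male other cells held 6.02 CPM of TDRD7 and 7.20 CPM of TDRD9.

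To compare shares of cells across depths, each cell was thinned at random to 1875 counts, the count minimum. At that depth 6.59% of female germ cell-like cells had a TDRD7 count (exact 95% binomial interval 4.58% to 9.13%), 21.7% of male ones (21.2% to 22.2%), and 12.9% and 11.3% of larval ones. Among other cells it was 0.112% of female, 1.64% of male, and 0.355% and 0.328% of larval cells. For TDRD9 it was 4.99% of female, 15.5% of male, and 9.73% and 10.4% of larval germ cell-like cells, beside 0.583% of female, 1.57% of male, and 0.751% and 0.701% of larval other cells. The female library is the lowest and the male library the highest in both cell sets, as for the CPM. Thinning to equal totals leaves in place the 185 genes that took 46.7% of the female germ cell-like counts. Their part in these shares was not tested. The shares of TDRD1, TDRD12 and TDRKH were at most 1.85% in any germ cell-like set, from 1 to 383 cells with a count, and no order is read from them. As deposited, with median depths of 19862 female, 8142.5 male, 18669.5 and 22040 larval counts, 46.5% of female, 62.0% of male, and 64.8% and 66.5% of larval germ cell-like cells had a TDRD7 count. In the unthinned cells the larval share thus exceeds the male share, against the order of the CPM.

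**Figure D4:**
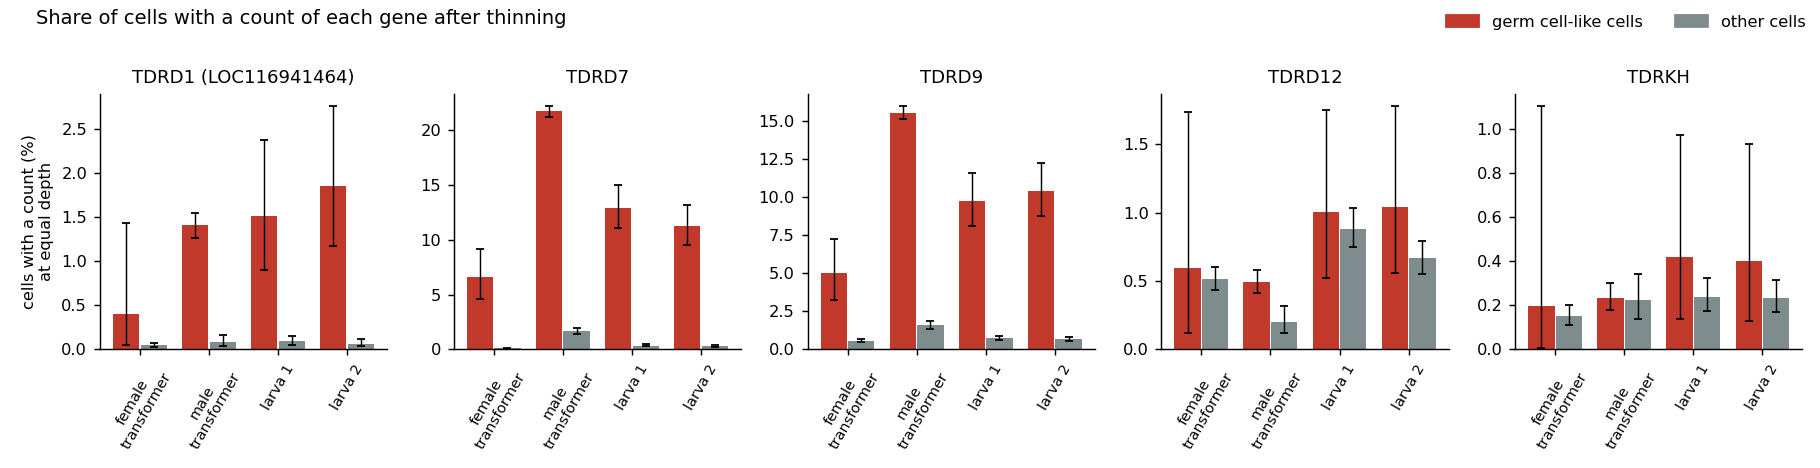
Share of cells with at least 1 count of each gene after every cell was thinned to 1875 counts, in germ cell-like (red) and other cells (grey) of each library; bars start at 0, axes differ between panels, and error bars are exact 95% binomial intervals. The male germ cell-like share is highest for TDRD7 and TDRD9, while the intervals of TDRKH overlap between the cell sets of each library.

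Counts of several of these genes in 1 cell were rare at that depth. At least 2 of the 5 genes had a count in 0.599% of female germ cell-like cells (3 of 501), 4.08% of male ones (1112 of 27222), and 2.68% and 2.01% of larval ones. Among other cells it was 0.0141% of female, 0.117% of male, and 0.0229% and 0.0328% of larval cells. No cell had a count of 4 or more of the 5 genes.

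Across the 61 profiles, TDRD1, TDRD7 and TDRD9 followed the germ cell-like clusters, TDRD12 did not, and TDRKH lay between. Pearson's r of log2(CPM + 1) was 0.9503 between TDRD7 and TDRD9, 0.912 between TDRD1 and TDRD9, and 0.885 between TDRD1 and TDRD7. TDRD12 had r of 0.10 with TDRD1, -0.12 with TDRD7, -0.10 with TDRD9 and 0.18 with TDRKH. TDRKH had r of 0.404 with TDRD1, 0.245 with TDRD7 and 0.317 with TDRD9. Among 19280 genes, the closest to TDRD9 were PIWIL1 (0.953), LOC116942980 (0.952) and TDRD7. The closest to TDRD7 were LOC116956390 (0.962), HSF2BP, a partner of the recombination machinery in mouse meiosis (0.962), and PIWIL1 (0.9505). PIWIL1 was also among the markers from which the germ cell-like clusters were named. LOC116958724 (0.967), LOC116957681 (0.967) and LOC116937632 (0.963) were closest to TDRD1. The closest genes of TDRD12 (LOC116954947, LOC116943844 and LOC116943714) reached only 0.742 to 0.750 and those of TDRKH (LOC116955726, LOC116958220 and LOC116945141) 0.670 to 0.694. The profiles share libraries and differ in depth, so these values describe likeness only.

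**Figure D5:**
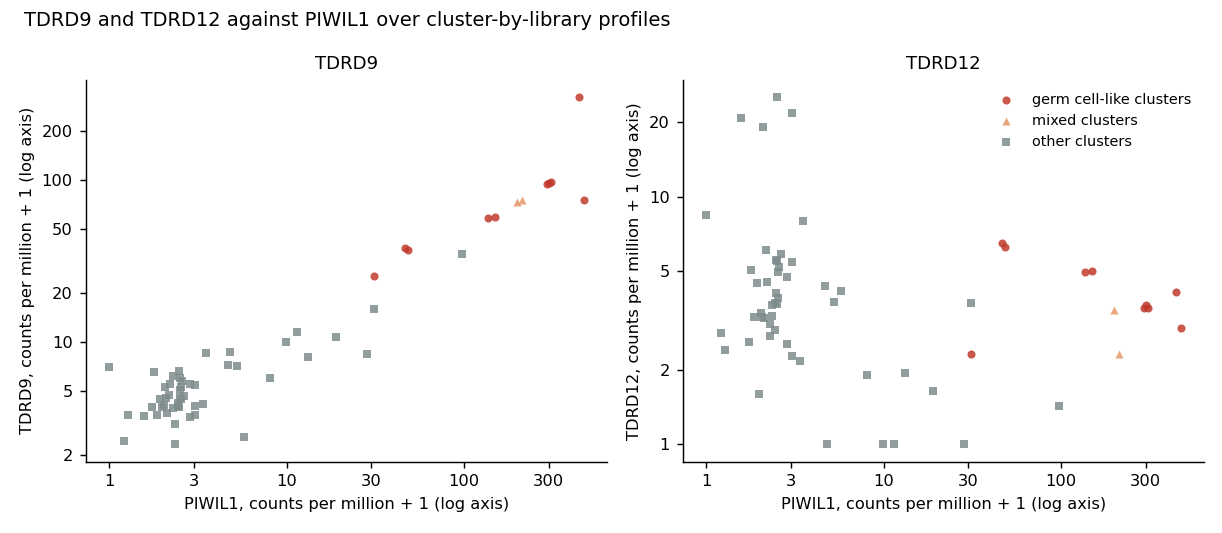
Level of TDRD9 (left) and TDRD12 (right) against PIWIL1 over 61 profiles of 1 cluster in 1 library, in CPM plus 1 on log axes; red circles are germ cell-like, orange triangles mixed and grey squares other clusters. TDRD9 follows PIWIL1 (r = 0.953), whereas the highest TDRD12 levels are in other clusters with little PIWIL1.

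Of 44 further piRNA pathway genes listed, 19 were found. At least 2-fold higher in germ cell-like cells of all 4 libraries were 10 of the 19, beside the 7.43% of all genes: PIWIL1, PIWIL2 (LOC116940246), MAEL, ASZ1, HENMT1, MOV10, EXD1, PNLDC1 (LOC116943358), WDR77 and CLNS1A. Several of them were also germ cell markers, so that count is partly set by the naming. In germ cell-like cells 6 of the 19 were at least 2-fold lower and 3 at least 2-fold higher in the female than in the male library, with a median log2 ratio of -0.01, beside 24.8% and 19.1% of all genes and their median of -0.09. With the 185 genes named above left out of the totals, 5 of the 19 were at least 2-fold lower and 9 at least 2-fold higher, with a median of 0.89, beside 11.8% and 43.2% of all genes and their median of 0.81.

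The 3 lowest female to male ratios were those of TEX15, a factor of transposon silencing in mouse male germ cells, PIWIL1 and MAEL, a granule protein of the pathway. TEX15 stood at 0.553 CPM in female germ cell-like cells, 28.4 CPM in male ones, and 32.2 and 30.8 CPM in larval ones, a female to male log2 ratio of -5.60. PIWIL1 stood at 31.1 CPM in female, 313.7 CPM in male, and 62.9 and 64.9 CPM in larval germ cell-like cells, a ratio of -3.33. MAEL stood at 6.02 CPM in female, 59.8 CPM in male, and 56.3 and 54.4 CPM in larval ones, a ratio of -3.31. The female level is the lowest for all 3 genes, and the larval levels are near the male one for TEX15 and MAEL but not for PIWIL1.

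The 3 highest ratios were those of MOV10, an RNA helicase, KIF17, a kinesin motor, and HENMT1, which methylates the ends of piRNAs. MOV10 stood at 25.9 CPM in female, 6.33 CPM in male, and 19.5 and 20.4 CPM in larval germ cell-like cells, a female to male log2 ratio of 2.04. KIF17 stood at 4.63 CPM in female, 1.42 CPM in male, and 1.06 and 1.18 CPM in larval ones, a ratio of 1.71. HENMT1 stood at 75.3 CPM in female, 30.4 CPM in male, and 58.0 and 57.9 CPM in larval ones, a ratio of 1.31.

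In the stage comparison 1 of the 19 genes passed, in other cells, a share close to the 4.82% of all genes there. MOV10 fell by 1.61 on the log2 scale in transformers (edgeR, adjusted p = 0.044), with 1.13 CPM in female and 1.14 CPM in male other cells against 5.06 and 5.08 CPM in larval ones. No gene passed in other cells without larval library 1 or without larval library 2. Of 24 other listed genes with Tudor domains, 10 were found. At least 2-fold higher in germ cell-like cells of all 4 libraries were 0 of the 10, beside 7.43% of all genes. With 10 genes no difference from that share is read. In germ cell-like cells 0 of the 10 were at least 2-fold lower and 3 at least 2-fold higher in the female library (24.8% and 19.1% of all genes), and 0 and 4 with the 185 genes left out of the totals (11.8% and 43.2%).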

How the data were processed

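The deposited files give, for each of the 4 libraries, barcodes, features and a matrix of whole-number counts per gene and barcode that the authors did not normalize or filter to cells, as the values show (the median barcode held 1 count). Per the labels' protocols a PIPseq T20 3′ kit (v4.0) was used. The aligner, counting tool and genome build are not given in the sources used here, nor is whether a count is a molecule or a read. Total counts were 288723418 (female), 406358335 (male), 239024376 and 268135961 (larval libraries 1 and 2).

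The count minimum was 5 times the largest background (375 counts, the median of barcodes ranked 40000 to 80000 in the male library). A further filter required 250 genes or more and no more than 20% of counts from 13 mitochondrial genes. Scrublet's automatic threshold marked under 0.5% of the cells, so cells at or above its 95th percentile score were removed. Variable genes without the 5 Tudor-domain genes, 30 principal components, 15 neighbours and Leiden clustering (scanpy 1.11.5, leidenalg 0.10.2) gave 39 clusters. A marker was raised at log2 1 above the median cluster with counts in at least 10% of cells, and a cluster was called germ cell-like when 3 or more germ cell markers were raised in it, more than of any other class. The 10 leading genes of such a cluster were taken against the other germ cell-like clusters. It was set aside as mixed when 5 or more of them stood among the 50 leading genes of another kind of cluster. That other cluster had to hold at least as many cells of the library that gave the first cluster most cells. Of the lists of other classes few markers were found. Such a class was named only when 3 or more of its markers were found and every found marker was raised. No other class could have more markers raised. Under this rule most other clusters stayed unnamed.

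CPM excluded 24 features without a gene name, which held 2.54% to 4.91% of the counts of called cells. Ratios used a prior of 0.5 counts and needed 20 counts. The stage test was edgeR 4.0.16 (R 4.3.3, TMM, filterByExpr, robust quasi-likelihood, two-sided, threshold 0.05), with DESeq2 1.42.0 as an alternative. It was also run on simulated counts with a single spread for all genes and no difference between the sexes, unlike these data. Nothing is read from that run here. Edge cases of the naming, cell calling, scaling and left-out libraries were run as alternatives. The members and lists were chosen with earlier results of these data known. Named genes were the 5 Tudor-domain genes, the 3 most correlated genes of each, listed pathway genes that passed the stage test, and those with the 3 highest and 3 lowest female to male ratios in germ cell-like cells. Protein and promoter sequences were not used here.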

Additional observations from a re-analysis of the deposited data

How the results depend on the processing

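The 3 genes at least 2-fold higher in germ cell-like cells of all 4 libraries, and the 3 at least 2-fold lower in female germ cell-like cells, stayed 3 under the alternatives run for both (totals without abundant genes, prior, count minimum, doublets, clustering by library, shared barcodes, clusters of at least 50 cells), except that without doublet removal TDRD12 joined the second set at -1.02, making 4. The first count also stayed 3 with free RNA subtracted, and the second with TMM scaling and without genes 100-fold apart between the sexes. In other cells the count lower in the female library was 2 with the count minimum doubled, without doublet removal and with each library clustered on its own, where TDRD1 fell short of 2-fold, and 1 with free RNA subtracted, an alternative chosen after seeing the data. The share of all genes under these alternatives is not given here. TMM scaling shifted every female to male ratio of other cells by -0.33.

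The stage counts depended on the tool and the libraries. DESeq2 called 1778 genes over all cells, 613 in the germ cell-like set and 3181 in the other cells. Leaving out 1 library at a time gave from 0 to 13219, 0 to 11996 and 0 to 10626 calls in the same cell sets, where 0 came without a larval library and the high counts came without a transformer library, with the spread then estimated from the larval pair alone and the lone transformer library assumed to vary like it. In other cells 369 genes passed with the count minimum doubled and 1385 without shared barcodes, an alternative chosen after seeing the data. With totals in place of TMM the median log2 fold change of all genes moved to -0.36, -0.35 and -0.50 in all, germ cell-like and other cells.

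The direction of single genes between the stages changed with the library left out, in most cases a transformer library (TDRKH in other cells also turned, to 0.04, without larval library 1). Over the fits without 1 library, the log2 fold change in all cells ran from -2.69 to 1.52 for TDRD1, from -2.17 to 2.92 for TDRD7, from -1.27 to 2.75 for TDRD9 and from -0.39 to 0.12 for TDRKH. In germ cell-like cells it ran from -2.08 to 0.25 for TDRD1, from -0.23 to 1.60 for TDRD7 and from -0.25 to 1.62 for TDRD9. In other cells it ran from -0.48 to 1.08 for TDRD1, from -1.55 to 2.61 for TDRD7, from -0.093 to 1.68 for TDRD9 and from -0.25 to 0.14 for TDRKH. TDRD1 in other cells was also negative with total counts (-0.25), with the count minimum doubled (-0.15) and without shared barcodes (-0.10), and the cause was not tested. TDRD12 stayed negative in every fit. No paired analysis was possible because the sex of the larvae is not given and each transformer group has 1 library, so the larval replicate numbers match no transformer library. TDRD1, TDRD12 and TDRKH have 14 to 19 counts in female germ cell-like cells, which limits their ratios there.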
